A study of Mus musculus with 6 samples.

Results

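Sox2, Sox11 and Chd7 are regulators of neural progenitors, and they were followed here with the SOX genes Sox4, Sox9 and Sox12 in cancer stem-like cells cultured from the prostates of TRAMP mice. The 6 genes were taken from the deposited array table by their symbol, each has 1 row of its own, and they stand among 9490 genes with a row. Sox2, Sox11 and Chd7 had been chosen by their log2 difference between the 2 groups, known from an earlier look at this table, so the values of all 6 genes in this contrast are a description, with no test and no p-value.

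In TRAMP mice the probasin promoter, active in prostate epithelium, drives the T antigens of SV40, and every sample carried this transgene. The large T antigen binds the products of Trp53 and Rb1. There were 3 arrays of TPIN cells, obtained at 10 to 11 weeks of age from prostates with intraepithelial neoplasia, and 3 arrays of TNE cells, obtained from prostates with neuroendocrine tumours, at an age that the labels do not state. All had been grown without serum, with EGF and FGF2. The free-text description of the TNE samples also names intraepithelial neoplasia, and the groups follow the titles and the cell type labels, which do not say whether replicates came from separate mice or cultures. For the other genes, p-values measure no more than the spread from array to array, which may be technical.

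SOX proteins bind DNA through an HMG box and bend it. SOX2, of the SOXB1 group, keeps neural progenitors and pluripotent cells undifferentiated, and it is also found in basal cells of the prostate and in neuroendocrine prostate cancer. SOX4, SOX11 and SOX12 form the SOXC group, which acts in progenitors that leave the stem cell state and begin to differentiate as neurons. SOX9, of the SOXE group, acts in neural stem cells, glia, cartilage and prostate buds. CHD7 is a remodelling enzyme that slides nucleosomes with the energy of ATP, its loss causes CHARGE syndrome in humans, and in neural stem cells it has been reported to bind together with SOX2 and to open the promoters of Sox4 and Sox11.

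The sequences just before the start sites of Sox2 and Sox11, whose levels were higher on all TNE arrays, are shown beside that of Sox4, the close relative of Sox11 whose groups overlapped. They are the 250 bases before the start in RefSeq (GRCm38.p6), 5′ to 3′ on the gene's strand, at chr3:34649745-34649994 (plus strand) for Sox2, chr12:27342719-27342968 (minus strand) for Sox11 and chr13:28953700-28953949 (minus strand) for Sox4. Capitals mark CCAAT, which appears as ATTGG where it lies on the other strand, and the octamer-like ATGCAAA.
Sox2: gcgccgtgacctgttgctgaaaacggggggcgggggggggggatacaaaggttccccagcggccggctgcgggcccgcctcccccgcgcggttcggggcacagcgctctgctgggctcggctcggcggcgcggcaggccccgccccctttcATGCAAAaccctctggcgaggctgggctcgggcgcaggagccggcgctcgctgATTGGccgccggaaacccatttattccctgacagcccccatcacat
Sox11: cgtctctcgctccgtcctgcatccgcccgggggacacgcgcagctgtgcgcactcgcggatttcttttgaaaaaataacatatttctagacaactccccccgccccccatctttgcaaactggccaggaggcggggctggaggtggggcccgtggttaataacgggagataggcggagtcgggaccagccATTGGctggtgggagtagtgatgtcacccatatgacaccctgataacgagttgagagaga
Sox4: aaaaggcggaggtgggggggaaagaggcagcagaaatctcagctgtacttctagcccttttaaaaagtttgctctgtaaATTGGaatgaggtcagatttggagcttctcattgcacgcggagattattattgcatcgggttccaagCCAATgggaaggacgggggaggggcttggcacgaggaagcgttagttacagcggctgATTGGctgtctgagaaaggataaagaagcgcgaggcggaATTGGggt
RefSeq windows were at hand for 4 of the 6 genes, with Chd7 and Sox9 missing.

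The 4 windows, that of Sox12 included, all held CCAAT on 1 strand or the other. It lay 46 to 42 bases before the start of Sox2 and 60 to 56 bases before that of Sox11, and Sox4 had 4 copies, 1 of them 47 to 43 bases before its start. Of 32851 windows of the same length in the table, 33.8% held CCAAT on either strand. ATGCAAA was found in Sox2 and Sox12 and in 4.12% of all windows, and the GC box GGGCGG in Sox2, Sox11 and Sox12 and in 32.7% of all windows. The SOX-like ACAAAG occurred in Sox2 alone of the 4 and in 16.5% of all windows. These motifs were chosen after the sequences had been seen, and a match describes the letters in the window.

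Sox2 had log2 expression values of 6.09, 6.08 and 6.41 in TPIN and of 8.03, 10.68 and 7.14 in TNE, here and below in the order of replicates 1 to 3. These numbers follow the order of the samples within each group, and no label links a TPIN array with the TNE array of the same number. Every TNE array lay above every TPIN array, but the lowest TNE value was only 0.725 above the highest TPIN value, and TNE replicate 2 stood far above the other TNE arrays. The mean level was 8.61 ± 1.84 in TNE against 6.19 ± 0.19 in TPIN (SD, n = 3). TNE minus TPIN was therefore 2.42 on the log2 scale (SE 0.80, the moderated standard error of limma), or 5.37-fold on the RMA scale. Its SD within TNE ranked 112 among the 9490 genes, whose median SD there was 0.33. Without TNE replicate 2 the log2 difference of Sox2 was 1.39.

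Sox11 had log2 values of 6.35, 6.41 and 5.98 in TPIN and of 9.71, 10.02 and 11.49 in TNE. The 3 TPIN arrays lay close together and the TNE arrays at least 3.30 above them, with TNE replicate 3 the highest. The mean was 10.40 ± 0.95 in TNE against 6.25 ± 0.23 in TPIN. TNE exceeded TPIN by 4.16 on the log2 scale (SE 0.47), or 17.8-fold, the seventh largest toward TNE of all genes. Leaving out 1 array at a time gave differences of 3.62 to 4.50.

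Chd7 had log2 values of 6.25, 5.98 and 8.07 in TPIN and of 10.17, 9.73 and 12.03 in TNE. TPIN replicate 3 stood above the other TPIN arrays, and again TNE replicate 3 was the highest of all. The lowest TNE array remained 1.66 above TPIN replicate 3. The mean was 10.64 ± 1.22 in TNE against 6.77 ± 1.14 in TPIN. TNE exceeded TPIN by 3.88 on the log2 scale (SE 0.73), or 14.7-fold, the ninth largest toward TNE. Leaving out 1 array at a time gave 3.18 to 4.53.

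**Figure D1:**
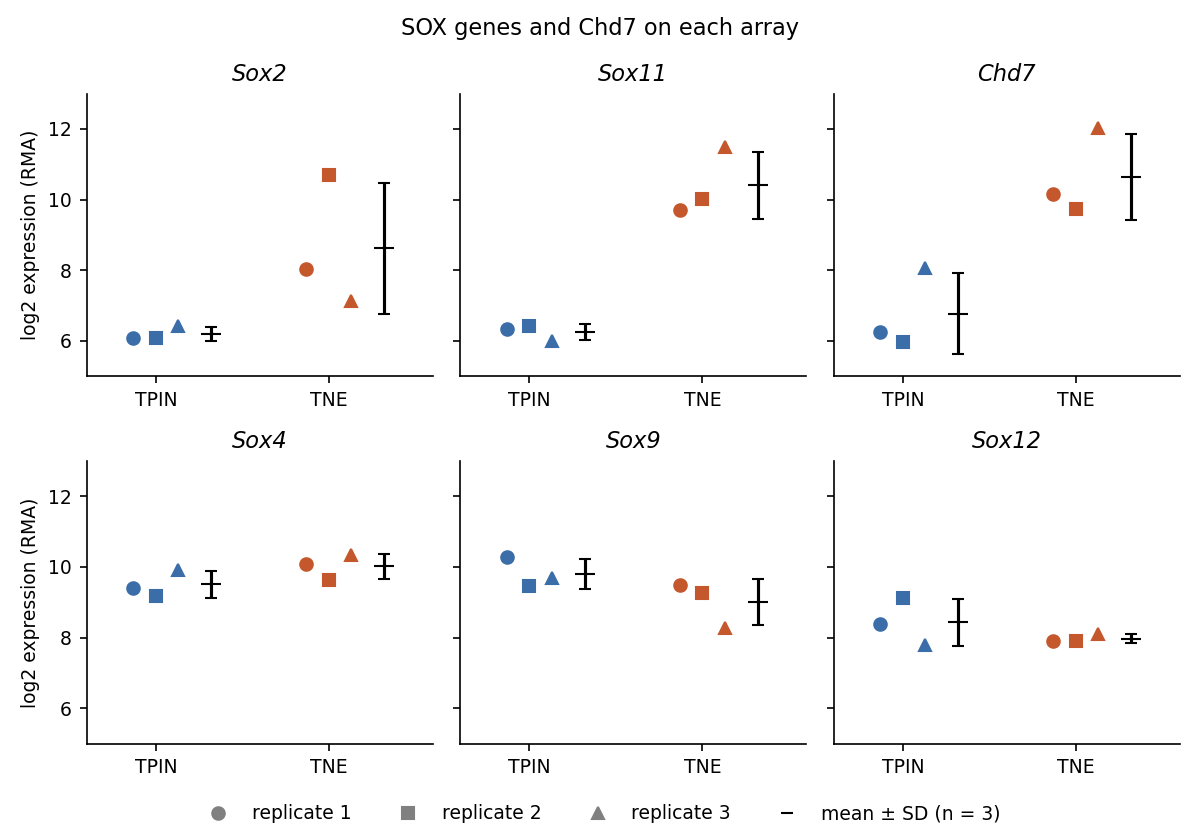
Log2 expression (RMA) of the 6 genes on each of the 3 TPIN and 3 TNE arrays, with the mean and SD of each group beside the points. Sox2, Sox11 and Chd7 lie higher on all TNE arrays than on any TPIN array, and Sox4, Sox9 and Sox12 overlap between the groups.

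The remaining SOX genes had small differences. Sox4, the SOXC relative that is widely expressed in progenitors and tumours, had log2 values of 9.41, 9.18 and 9.92 in TPIN and of 10.09, 9.62 and 10.33 in TNE, so that TNE replicate 2 lay below TPIN replicate 3. The difference was 0.51 (SE 0.32). Sox12, the third SOXC gene, had 8.39, 9.12 and 7.80 in TPIN and 7.91, 7.90 and 8.11 in TNE, a difference of -0.46 (SE 0.37). All 3 TNE values of Sox12 fell within the TPIN range. The SOXC genes thus differed among themselves in these samples, with log2 differences of 4.16, 0.51 and -0.46 for Sox11, Sox4 and Sox12.

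Sox9 had log2 values of 10.28, 9.46 and 9.69 in TPIN and of 9.49, 9.26 and 8.27 in TNE. The groups overlapped through TPIN replicate 2 and TNE replicate 1, and TNE replicate 3 was the lowest. The difference was -0.81 (SE 0.40). In all, 3 of the 6 genes had groups that did not overlap, all higher in TNE, where 23.3% of all genes were likewise higher without overlap and 43.8% did not overlap in either direction. Among all genes 20.5% passed the limma test at an adjusted p under 0.05, 10.3% higher and 10.2% lower in TNE. Since the 6 genes were chosen with this contrast known, nothing is read from these shares about them.

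**Figure D2:**
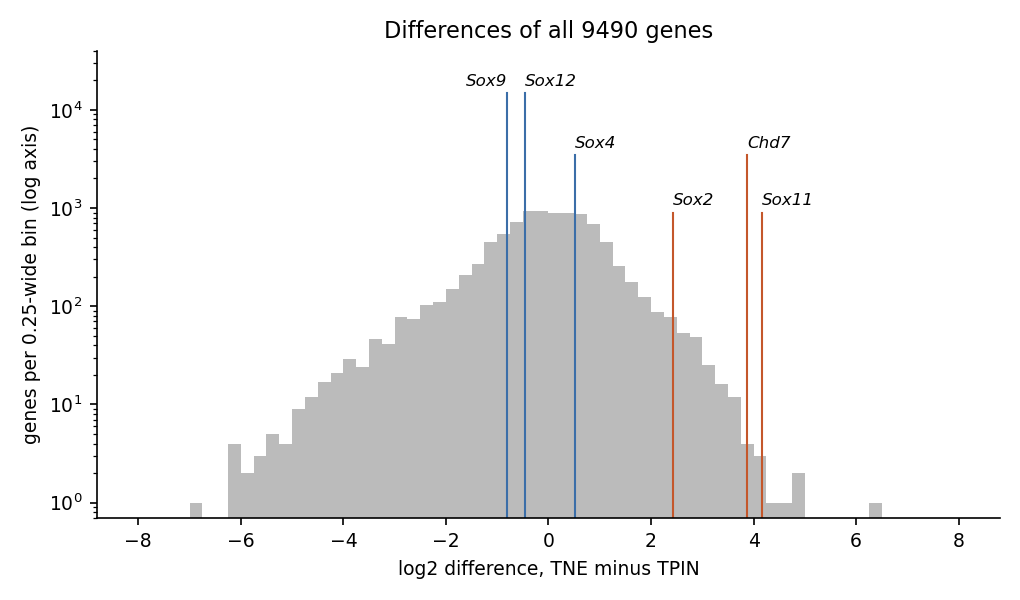
Histogram of the log2 difference, TNE minus TPIN, of all 9490 genes on a log axis of gene number, with lines at the 6 genes. Sox11 at 4.16 and Chd7 at 3.88 lie in the far right tail, Sox2 at 2.42 ranks 187, and Sox4, Sox9 and Sox12 lie in the bulk.

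The 3 genes that were higher in TNE did not share 1 order of the arrays. Sox2 was highest on TNE replicate 2 and lowest, within TNE, on replicate 3, a span of 3.55 on the log2 scale or 11.7-fold. Sox11 and Chd7 were both highest on TNE replicate 3, where Sox2 was nearest to its TPIN level, with spans of 1.78 and 2.30 within TNE. Within TPIN, Sox2 and Sox11 spanned 0.34 and 0.43, while Chd7 spanned 2.10. With 3 arrays in a group, these orders describe single samples, and no array was repeated.

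**Figure D3:**
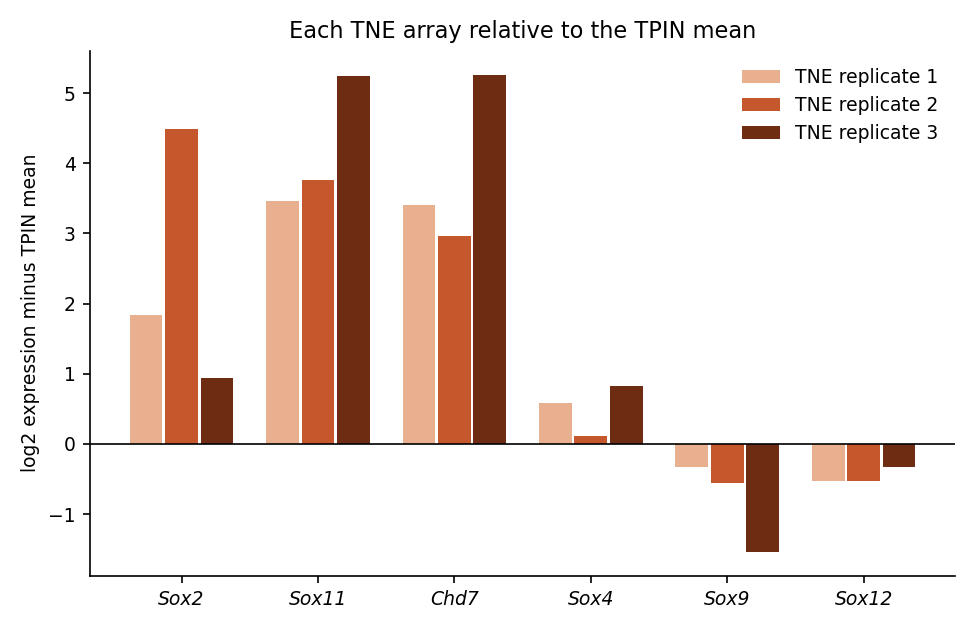
Log2 expression of each TNE array minus the TPIN mean, for the 6 genes, with 1 bar per TNE replicate. The tallest bar of Sox2 is replicate 2, and the tallest bars of Sox11 and Chd7 are replicate 3.

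The genes most like each of the 3 in pattern were found by Pearson correlation of log2 values over the 6 arrays, a measure that the step between the groups largely sets. At r of at least 0.9 there were 166 genes for Sox2, 715 for Sox11 and 514 for Chd7. Nearest to Sox2 were Ldah, a lipid droplet hydrolase (r = 0.996), the adaptor Bcar3 (0.996), the carboxylesterase Ces2g (0.995) and the neuronal calcium sensor Ncald (0.991). Each of them was highest on TNE replicate 2. Ncald, for example, had log2 values of 7.58, 7.37 and 7.74 in TPIN and of 9.08, 11.02 and 8.72 in TNE.

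Nearest to Sox11 were Cyp39a1, an oxysterol hydroxylase (r = 0.998), the kinase Rps6ka6 (0.996), the centrin Cetn3 (0.996) and the glycosyltransferase B4galnt4 (0.996). Cyp39a1 had log2 values of 7.58, 7.84 and 7.54 in TPIN and of 9.92, 10.30 and 11.09 in TNE, the TNE order of Sox11. Nearest to Chd7 were Srpk2, a kinase of splicing factors (r = 0.999), Syne2, which encodes the nuclear envelope protein nesprin-2 (0.996), the centrosomal Cep97 (0.994) and the RNA-binding Khdrbs2 (0.992). Syne2 had 7.57, 7.50 and 8.59 in TPIN and 10.50, 10.17 and 11.76 in TNE, with TPIN replicate 3 above its group as for Chd7. All genes named as nearest to Sox2, Sox11 or Chd7 were picked for their likeness. Neither their order over the arrays nor their own difference between the groups is a separate result.

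Genes outside the 6 were tested with limma over all 9490 genes, and lists are given by their counts beside the background of 20.5%. Of the other SOX genes, Sox5 and Sox7 had a row, and neither passed. For Sox5, a SOXD gene of cartilage and neurons, TNE minus TPIN was -0.65 (SE 0.32), with limma adjusted p = 0.172. Sox7, a SOXF gene of vessels, had -0.41 (SE 0.36, limma adjusted p = 0.430). The count was 0 at an unadjusted p under 0.05 as well. All 3 TNE arrays of Sox5 lay below its TPIN arrays, with 8.07 the highest in TNE and 8.08 the lowest in TPIN, and the groups of Sox7 overlapped.

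Of 6 other CHD genes, 1 rose in TNE and 5 did not pass. Chd1l, a remodeller recruited to DNA damage, had log2 values of 7.63, 7.28 and 7.68 in TPIN and of 9.50, 9.08 and 8.30 in TNE, a 2.69-fold difference (limma adjusted p = 0.0303). Its TNE values were lowest on replicate 3, where Chd7 was highest. The call did not hold when TPIN replicate 1 or 2, or TNE replicate 1 or 2, was dropped. Chd8 and Chd9, which belong to the same subfamily as Chd7, had differences of 0.18 (SE 0.32) and -0.05 (SE 0.29). Chd1, Chd2 and Chd4 had differences of 0.56, 0.64 and 0.27, with limma adjusted p between 0.214 and 0.508.

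CHD7 has been reported to act with the PBAF complex, a large remodeller of the SWI/SNF type. Of 17 subunits of BAF and PBAF, 1 fell and 16 did not pass, a share of 5.88%, and the median log2 difference was 0.48 against -0.02 over all genes. Smarca2, the alternative ATPase subunit of BAF, fell 2.86-fold, to 8.33 ± 0.56 from 9.85 ± 0.44 (limma adjusted p = 0.0295), a call that did not hold when TPIN replicate 1 or 2, or TNE replicate 2 or 3, was dropped. Pbrm1, which defines PBAF, stood at 12.03 ± 0.52 in TNE against 11.26 ± 0.42 (limma adjusted p = 0.158), and Smarce1 had a difference of 0.53 (limma adjusted p = 0.183). After a second quantile normalization 3 subunits passed, 2 of them higher in TNE.

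Genes reported as targets of SOX2, CHD7 or the SOXC proteins did not share a direction. Of 10 measured outside the 6, 1 fell, none rose and 9 did not pass, with 5 positive and 5 negative differences and a median of -0.42. Gli3, a transcription factor of the hedgehog pathway that SOX2 and CHD7 are reported to regulate together, was 7.78-fold lower in TNE. Its log2 values were 10.08, 10.40 and 9.27 in TPIN and 6.68, 6.44 and 7.74 in TNE, with limma adjusted p = 0.00499, so the groups lay well apart in the direction opposite to Sox2 and Chd7. Gli2 and Tulp3, of the same pathway, had differences of -1.18 and -1.29 and did not pass (limma adjusted p = 0.0529 and 0.0903).

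Mycn, another reported joint target, had log2 values of 7.80, 7.96 and 7.83 in TPIN and of 7.30, 11.98 and 10.99 in TNE. It was high on TNE replicates 2 and 3 and below every TPIN array on TNE replicate 1, and the difference of 2.22 did not pass (limma adjusted p = 0.157). Jag1, a Notch ligand, and the receptor Notch1 had differences of 0.32 and 0.04. In 5 of the 10 targets the groups did not overlap: Gli3, Gli2 and Tulp3 were lower on every TNE array, and the neuronal genes Map2 and Tubb3, reported SOXC targets, were higher, where 20.5% of all genes were lower and 23.3% higher without overlap. Map2, a microtubule protein of dendrites, had 6.48, 6.97 and 9.24 in TPIN and 9.51, 9.31 and 11.65 in TNE, a difference of 2.59 (limma adjusted p = 0.0641). Tubb3, the neuronal beta-tubulin, had a difference of 1.06 (limma adjusted p = 0.0625). Map2, like Chd7, was highest on replicate 3 within either group.

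Tead2, a SOXC target of the Hippo pathway, and Nes, which encodes the neural progenitor filament nestin and has a SOX2-bound enhancer, had differences of -0.88 and -1.18 and did not pass. Nes was lowest of all on TNE replicate 3, at 6.36, and between 8.90 and 10.15 on the other 5 arrays. With TPIN replicate 3 dropped, 3 targets passed, Map2 and Gli2 among them. With TNE replicate 1 dropped, 3 passed as well, with Mycn and Tubb3 among them.

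The wider list of neural stem and progenitor genes gave no common direction either. Of 18 measured, 3 rose, 2 fell and 13 did not pass (27.8% past the threshold), and the median difference was -0.05. Hmgb2, a chromatin protein of dividing progenitors, was 9.29-fold higher in TNE, from 8.77 ± 0.68 to 11.99 ± 0.34 (limma adjusted p = 0.00261). Id4, an inhibitor of bHLH factors, had 7.29, 7.03 and 7.12 in TPIN and 9.17, 9.73 and 10.58 in TNE. Id4 had the TNE order of Sox11, with limma adjusted p = 0.00426. Hes6, which promotes neuronal differentiation, was 2.13-fold higher (limma adjusted p = 0.0257), a call that did not hold when TPIN replicate 1 or 2, or TNE replicate 1 or 2, was dropped.

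Meis2, a homeobox cofactor, fell 8.95-fold, to 8.07 ± 0.42 from 11.23 ± 0.17 (limma adjusted p = 0.00113), and Gli3, given above, was the other that fell. Msi2 and Meis1, the brightest genes of the list that did not pass, had differences of 0.17 and -0.62. The 18 progenitor genes had 8 positive and 10 negative differences. Sox2, Sox11 and Chd7, all higher in TNE, had been chosen by this contrast, so no comparison with them is drawn.

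Pluripotency genes, partners of SOX2 in embryonic stem cells, were measured for 7 of 19, and Pou5f1 and Nanog are not analysed here. Tfcp2l1 rose 2.26-fold (limma adjusted p = 0.0428), a call that did not hold when any 1 of the 6 arrays was dropped, and 6 did not pass. The reprogramming factors Klf4 and Myc had differences of -0.90 and -0.82, both lowest on TNE replicate 3.

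Genes tied to lineage plasticity in prostate cancer, in which SOX2 and the methyltransferase EZH2 are known players, had 5 of 11 members higher, none lower and 6 not past the threshold, with a median difference of 1.22. Ezh2 had log2 values of 9.82, 10.22 and 9.29 in TPIN and of 11.57, 11.65 and 12.01 in TNE, a 3.91-fold difference (limma adjusted p = 0.00680). Ezh2 stood at nearly the same level on the 3 TNE arrays. Its partner Suz12 rose 2.33-fold, the DNA methyltransferase Dnmt1 3.38-fold, the chromatin protein Dek 3.04-fold and the mitotic kinase Aurka, a stabiliser of MYCN, 4.23-fold (limma adjusted p between 0.00794 and 0.0299). Peg10 and Kdm1a had differences of 0.86 and 0.68 and did not pass. With TPIN replicate 1 or TNE replicate 3 dropped 3 passed, with TNE replicate 2 dropped 2, and with TNE replicate 1 dropped 7, of which 6 were higher and 1 lower, the neuronal gene repressor Rest (log2 difference -1.86, named after its values were seen). Aurka and Suz12 each lost their call in the first 3 of these cases, and Dek with TNE replicate 2 dropped.

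**Figure D4:**
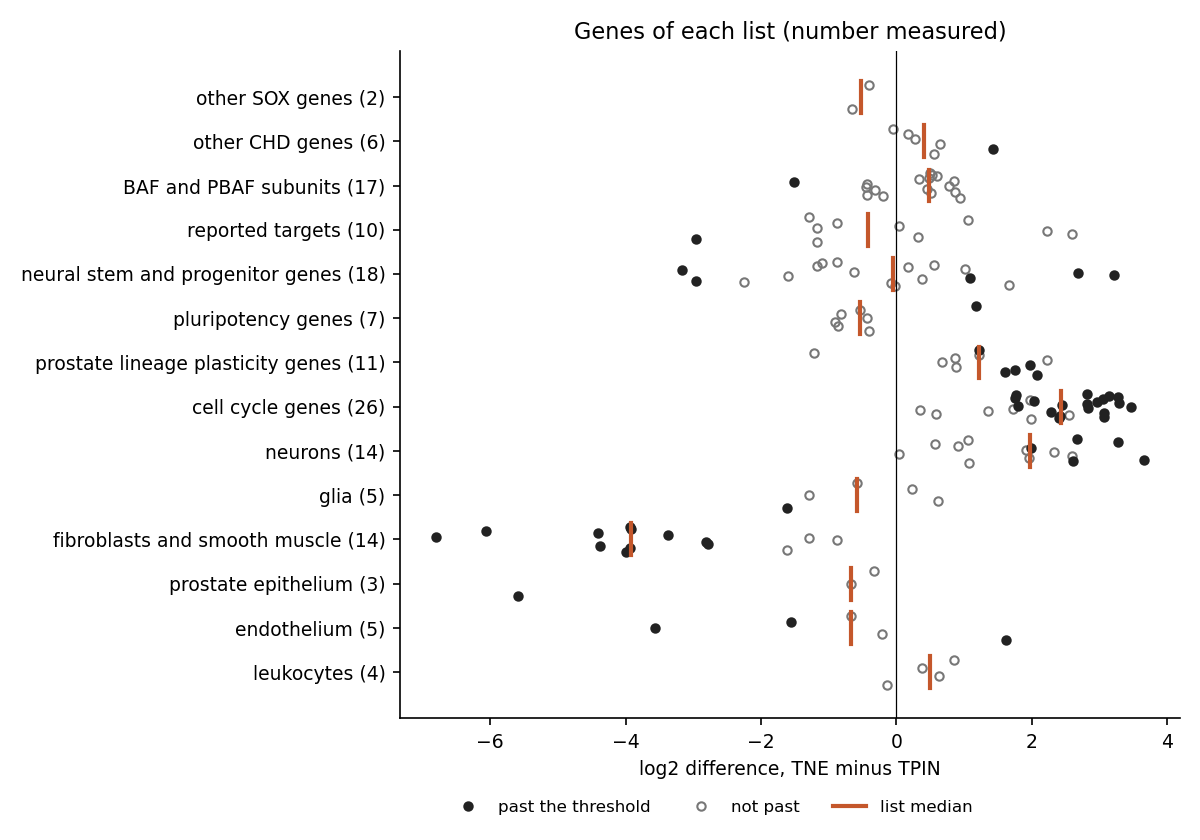
Log2 difference, TNE minus TPIN, of each measured gene of the lists outside the 6 genes, with filled points past the limma threshold, open points not past it, and a bar at each list's median. The medians are -0.05 for the neural stem and progenitor genes, 2.43 for the cell cycle genes and -3.92 for the markers of fibroblasts and smooth muscle.

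Cell cycle genes and markers of fibroblasts differed on the same arrays. Of 26 cell cycle genes 19 rose and none fell, with a median difference of 2.43. Their mean level was 8.48, 9.88 and 8.06 in TPIN and 10.96, 11.27 and 11.24 in TNE. Among 14 fibroblast and smooth muscle markers 11 fell and none rose, and their mean was 11.28 to 11.60 in TPIN and 7.53 to 8.54 in TNE. The part of either in the differences of Sox2, Sox11 and Chd7 was not tested, and in bulk samples fewer cells of a type and less RNA per cell cannot be told apart.

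Markers of neurons were measured for 14 of 22 genes. Of these 14 markers 5 rose, none fell and 9 did not pass. All 14 differences were positive, where 4668 of all 9490 genes had a positive difference. Since the rule that kept rows in the table is unknown, a marker low in TPIN, such as Elavl4, may have a row only through its TNE level. The shared sign is therefore a description. The list mean was 7.60, 7.30 and 7.58 in TPIN and 8.48, 9.83 and 9.88 in TNE, so TNE replicate 1 was nearest to TPIN. Uchl1, a neuronal ubiquitin hydrolase, rose 6.35-fold and stood at 10.99, 10.98 and 11.15 in TNE (limma adjusted p = 0.00464). The RNA-binding Elavl2 rose 6.09-fold (limma adjusted p = 0.00939). Elavl4, of the same family, and Syt1, the calcium sensor of synaptic vesicles, were both highest on TNE replicate 3, as were Sox11 and Chd7. Elavl4 had 7.95, 8.37 and 11.70 in TNE against 5.68 ± 0.12 in TPIN (limma adjusted p = 0.0261), and Syt1 had 9.07, 9.91 and 12.38 against 7.18 ± 0.07 (limma adjusted p = 0.0221). Neither call held when any 1 TPIN array was dropped.

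Snap25, a vesicle fusion protein, rose 3.98-fold (limma adjusted p = 0.0273), a call that did not hold when TPIN replicate 2, or TNE replicate 2 or 3, was dropped. Ncam1 and Crmp1, the brightest that did not pass, had differences of 0.04 and 1.07. Of the 14 markers, 9 were highest within TNE on replicate 3, as were Sox11 and Chd7, 5 on replicate 2, as was Sox2, and none on replicate 1. A peak on replicate 3 was not particular to neuronal genes. It was found for 12 of 14 fibroblast and smooth muscle markers, 5 of 7 pluripotency genes and 4 of 5 endothelial genes. Among 26 cell cycle genes 11 peaked there and 12 on replicate 2. The share over all genes was not counted. The neurofilament genes Nefl and Nefm, chosen after their values were seen, were among the 5 neuronal markers highest on replicate 2. Nefl had 6.38, 10.74 and 8.12 in TNE and Nefm 6.19, 10.41 and 6.92, against TPIN means of 6.07 and 5.92, and neither passed (limma adjusted p = 0.111 and 0.180). With TPIN replicate 1 dropped 3 neuronal markers passed, with TPIN replicate 2 dropped 2, and with TNE replicate 1 dropped 8.

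Markers of other cell types were fewer. Of 5 glial genes 1 fell and none rose, and their mean was 7.73 to 8.83 in TPIN and 7.69 to 7.97 in TNE. Prostate epithelial markers were measured for 3 of 17 genes, of which 1 fell, and their mean was 9.30 to 9.54 in TPIN and 7.08 to 7.39 in TNE. Acpp, Krt8 and Krt18 are these 3, named after their values were seen, and Acpp was the gene that fell. The lower mean came mostly from Acpp, with a log2 difference of -5.60. Krt8 and Krt18 had differences of -0.33 and -0.66 and did not pass (limma adjusted p = 0.378 and 0.0967). Of 5 endothelial genes 1 rose and 2 fell, with means of 7.83 to 8.37 in TPIN and 6.82 to 7.91 in TNE. The number that fell was 1 when any 1 array other than TNE replicate 3 was dropped, and 1 after a second quantile normalization, and 2 glial genes fell with TPIN replicate 2 dropped. Of 4 leukocyte genes none passed in limma, with 0 at an unadjusted p under 0.05, and their means of 6.67 to 7.26 in TPIN and 6.40 to 8.04 in TNE overlapped. The array values come with no detection call, so no marker can be called absent.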

How the data were processed

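RNA from 6 samples of cultured cells was measured on single-colour whole-transcript arrays. Per the submitters' processing notes, the authors ran RMA, in a version not stated there, and deposited its log2 expression values. RMA corrects background, brings arrays to a shared distribution and summarises probes, and it narrows differences near background. The table has 10361 rows, part of the array, chosen by a rule that the sources used here do not give. The number of arrays limits the precision, and no pair of arrays shared more than 0.106% of its values.

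Rows were named by the platform annotation (9496 with 1 symbol, 374 with several, 491 with none), and 9486 of the first matched RefSeq (GRCm38.p6) by Entrez identifier. The row with the highest mean stood for each of 6 genes with several rows, for 9490 genes in all. TNE was set against TPIN with limma 3.58.1 (R 4.3.3, group means, empirical Bayes, two-sided, Benjamini-Hochberg over all genes, threshold 0.05), tested on simulated data. The 10 simulations had 200 changed genes among 9490. There limma recovered 4.6% of changes of log2 size 1, 53.8% of size 2, 76.6% of size 3 and 89% of size 4. Of its calls there, 5.3% were false. In the data 1941 genes passed, far more than were changed in the simulations, so these shares need not hold for this contrast. A gene that did not pass may still differ between the groups. Differences are TNE minus TPIN, and SE is the moderated standard error. Values compared between samples belong to 1 gene or to the mean of 1 list. Levels of different genes were compared only to pick the brightest genes to name.

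Genes and lists were chosen with earlier results of these data known. Of 255 genes in 14 lists, 139 had a row. Named were all measured members of the SOX, CHD and target lists, up to 5 with the smallest p past the threshold and the 2 brightest not past it from the other lists and the neuronal markers, and the 4 genes with the highest correlation to each of Sox2, Sox11 and Chd7, leaving out predicted gene models. Cell cycle genes and the other marker lists are given by counts and means, and genes named beyond this rule are marked as named after their values were seen. Alternatives were each array left out, a second quantile normalization, genes with a mean under 6 in both groups left out, a mean over a gene's rows, an intensity trend with a robust prior, and all rows tested.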

Additional observations from a re-analysis of the deposited data

How the results depend on the processing

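Leaving out 1 array at a time moved the number of genes past the threshold most: it was 1941 with all arrays and 832 to 2596 without 1 of them (832 with TNE replicate 2 dropped, 936 with TPIN replicate 1 and 1115 with TPIN replicate 2), while the other alternatives gave 1914 to 2074. The count was 0 to 1 for other CHD genes, 0 to 1 for BAF and PBAF subunits (3 after a second quantile normalization), 1 to 3 for reported targets, 0 for pluripotency genes whichever array was left out and 2 to 7 for the lineage plasticity genes. The cause was not tested, beyond the fewer samples in each fit. Sox2, Sox11 and Chd7 were higher in TNE under every alternative listed, and Sox2 ranged from 1.39 to 3.16 (log2) with 1 array left out. Their groups did not overlap, so leaving out an array could not reverse the sign. Of the other alternatives, only the second quantile normalization could change their differences. The shared sign is therefore no separate support. Differences that changed sign with 1 array left out had not passed: Chd8 (-0.0625 to 0.35), Chd9 (-0.24 to 0.14), Meis1 (-1.17 to 0.13), Myc (-1.42 to 0.18), Ncam1 (-0.51 to 0.46), Notch1 (-0.45 to 0.34) and Peg10 (-0.54 to 1.81). The second quantile normalization moved the median difference of all genes from -0.02 to 0.06. No paired analysis was possible because the titles carry no replicate numbers that the groups share. Signal over background is unknown, so differences from low levels, such as those of Sox2 and Sox11 in TPIN, may be narrowed.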
